A study of Arabidopsis thaliana with 13 samples.

Results

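Seedlings of Arabidopsis thaliana that overexpress the cytokinin oxidase CKX1 were given 6-benzyl adenine (BA), a synthetic cytokinin, for 15 min, and their transcripts were set against those of the same plants given solvent. The comparison rests on 7 of the 13 arrays of the series, chosen by their titles, with 4 arrays of CKX1 seedlings after 15 min of BA and 3 arrays of CKX1 seedlings after 2 h of solvent. The other 6 arrays came from wild-type Col-0 seedlings, 2 after 15 min of BA, 2 after 120 min of BA and 2 after solvent, and were used to estimate the spread and to look up the same probe sets without the transgene. All 22746 probe sets that are not array controls belonged to the comparison, and the 15922 that passed a filter on low signal were tested.

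The CKX1 plants carry 35S::CKX1, in which a viral promoter active in most plant tissues drives the oxidase throughout the seedling. All seedlings grew in liquid MS, and BA was dissolved in diluted KOH. Whole seedlings were used, so fewer cells of a type and less RNA per cell cannot be told apart. The labels give 6 days of growth for the Col-0 arrays with BA. They give no growth time for CKX1 seedlings, no dose of BA, and no statement of whether the CKX1 plants are 1 line or several, or whether replicates were separate cultures. P-values therefore measure the spread between these arrays, which may be technical. Solvent was applied for 2 h and BA for 15 min. In every 15 min comparison below, the presence of BA and the length of the treatment therefore cannot be told apart. Only the Col-0 arrays with 120 min of BA match the solvent arrays in length.

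Cytokinins are perceived by membrane histidine kinases, which pass a phosphate through phosphotransfer proteins to type-B response regulators in the nucleus. Those transcription factors switch on the type-A response regulators within minutes, and the type-A proteins dampen the signal in turn. Cytokinin oxidases remove cytokinins by cutting off their side chain, and plants with a 35S::CKX transgene hold less cytokinin, with smaller shoots and larger root systems. Benzyl adenine has an aromatic side chain and is a poor substrate for most of these enzymes.

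The arrays numbered alike resembled each other. Signals are given in the deposited units, linear and normalized by the submitters' service centre, and array medians in CKX1 lay between 30.5 and 35.8 units. Differences and fits are on a log2 scale after a pseudocount of 3.39 was added, which understates changes of dim probe sets. Deviations from the group means, across probe sets, correlated at 0.63 in pair 1, 0.58 in pair 2 and 0.73 in pair 3, against −0.51 to 0.47 between arrays of different numbers. Centring on the group means lowers the correlations between different numbers, so this contrast is overstated. Levels without centring correlated at 0.971, 0.941 and 0.932 in pairs 1 to 3, against 0.807 to 0.921 across numbers 1 to 3. For BA array 4 they correlated at 0.965, 0.942 and 0.856 with solvent arrays 1 to 3. On these grounds the number served as a pair. The median residual SD per probe set was 0.272 in a fit of these 6 arrays with the pair as a block, against 0.501 for the same arrays without it. Array 4 of the BA group has no partner and deviated most like solvent array 1, at 0.47.

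The 3 pairs were not equally quiet. Of all probe sets tested, 3.22% were 2-fold or more apart in pair 1, 10.4% in pair 2 and 12.3% in pair 3. BA array 3 and solvent array 3 had a 25S ribosomal RNA control of 803.7 and 260.3 units, against 11.1 to 21 units in the other BA arrays and 2.4 and 14.5 units in the other solvent arrays. BA array 2 had 131 probe sets below 1 unit, against 1051 to 1573 in the other BA arrays and 1370 to 1779 in the solvent arrays. The part of these features in the results was not tested, other than by the values without single arrays or pairs.

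After BA 1 probe set rose, 247406_at, which the annotation used here does not list under any gene. Its signal after BA was 206.5, 138.3, 288.8 and 160.9 units in arrays 1 to 4, against 1.6, 10.9 and 5.9 units in solvent arrays 1 to 3. Every BA array lay above every solvent array, and the lowest of them stood at over 10 times the highest solvent value. The means were 198.6 ± 66.5 units after BA (SD, n = 4) and 6.13 ± 4.65 units with solvent (SD, n = 3). The log2 fold change was 4.48 (SE 0.39) in the unpaired limma fit of all arrays (adjusted p = 0.00156) and 4.56 (SE 0.39) as the mean of the pair differences (paired limma fit, adjusted p = 0.0245). Each fit called this probe set higher and no other, which is 0.00628% of those tested, and neither called any lower.

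The unpaired call held in all 19 alternatives tried, with adjusted p from 0.000429 to 0.0452. The paired call, which rests on 2 residual degrees of freedom, held in 7 of 13. Without pair 1 its adjusted p was 0.0938 while the log2 change was 4.14, and in the same 6 arrays without the pair as a block it was 0.273. Without pair 2 the paired fit called 52 probe sets and without pair 3 it called 12, each on 1 residual degree of freedom. At an unadjusted p under 0.05, 133 probe sets were higher (0.835%) and 85 lower (0.534%) in the unpaired fit, and 315 were higher (1.98%) and 409 lower (2.57%) in the paired fit.

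The probe sets next in order were also unlisted, and none of them passed over all probe sets. 252374_at had 380.1, 150.8, 931.5 and 317.8 units after BA and 22.3, 37.9 and 32.6 units with solvent. Its BA arrays spread over a wide range, array 3 being highest and array 2 lowest, while the solvent arrays were close together and all below. The log2 difference was 3.44 (SE 0.47, unpaired limma adjusted p = 0.0780) and 3.50 as a mean of pairs (paired limma adjusted p = 0.179). It passed the unpaired limma fit without BA array 2 (adjusted p = 0.00656) or without BA array 3 (adjusted p = 0.0164). It also passed the paired limma fit without pair 2 (adjusted p = 1.17e-16) or without pair 3 (adjusted p = 0.00037). In these paired fits 1 residual degree of freedom is left. Their p-values therefore rest largely on spread estimated over other probe sets, not on the spread of 252374_at between pairs.

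In 259466_at, pair 2 differed from the other pairs. After BA it had 310.6, 105.7, 235 and 179.3 units, against 1.3, 52 and 3.5 units with solvent. The groups did not overlap, but solvent array 2 stood far above the other solvent arrays. The pair differences were 6.06, 0.98 and 5.11 on the log2 scale in pairs 1 to 3. The unpaired difference was 4.02 (SE 0.68, limma adjusted p = 0.315), and it passed without solvent array 2, at 5.11 (adjusted p = 0.000831).

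Smaller but even differences were seen in 3 further unlisted probe sets. 251665_at had 117.1, 85.4, 106.3 and 70.6 units after BA and 28.5, 38.1 and 31.3 units with solvent, a log2 difference of 1.43 (SE 0.22, unpaired limma adjusted p = 0.186). 246217_at had 40.6, 39.8, 55 and 31.8 units after BA and 7.8, 11 and 11.1 units with solvent (log2 difference 1.74, SE 0.40). 263236_at had 306.4, 158.3, 428.7 and 322.8 units after BA and 113.1, 80.3 and 156.1 units with solvent (log2 difference 1.32, SE 0.32). In each of them the BA arrays lay above all solvent arrays.

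**Figure D1:**
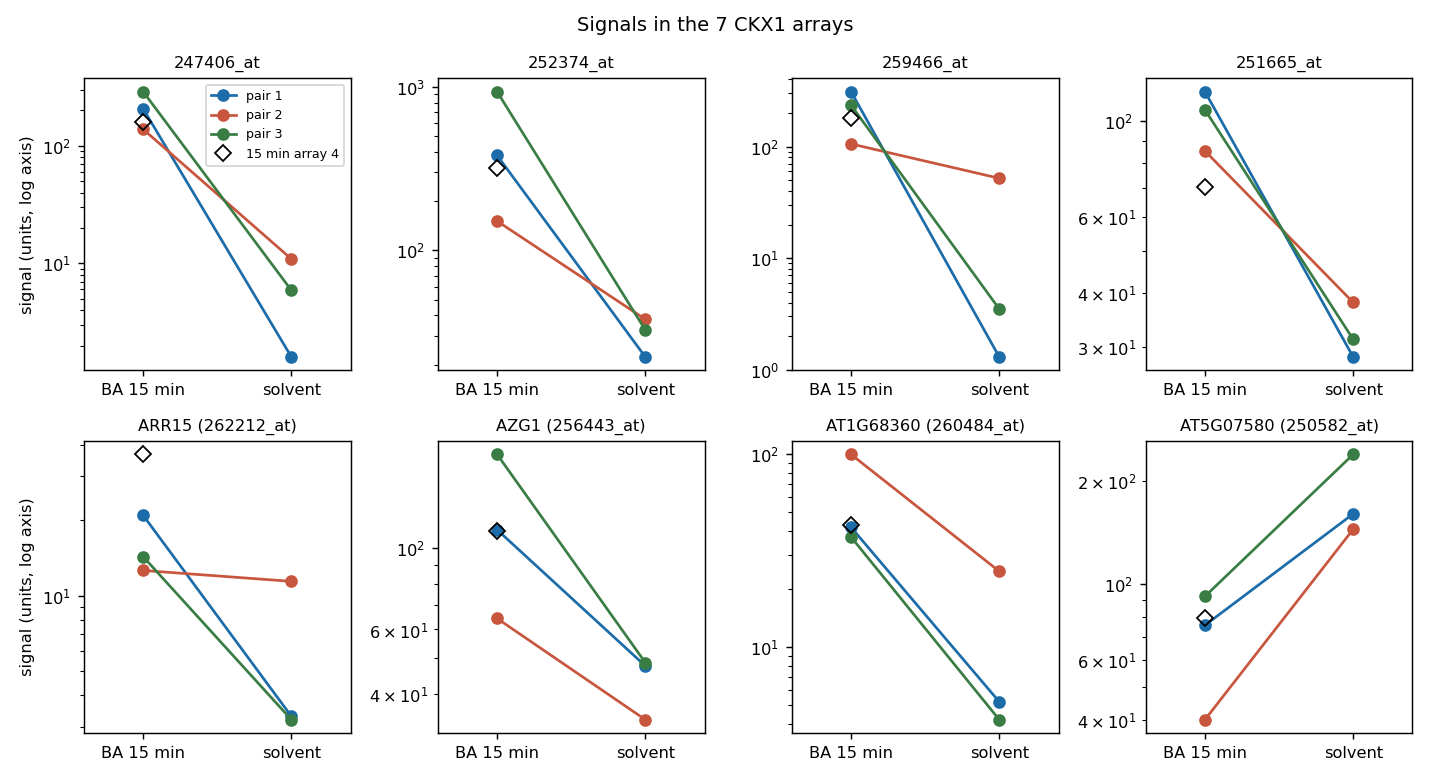
Signals in the 7 CKX1 arrays for 8 probe sets, in units on a log axis, with BA 15 min left and solvent right. Lines join arrays of the same number (pairs 1 to 3) and the open diamond is BA array 4. In 247406_at the BA arrays sit at 138.3 to 288.8 units and the solvent arrays at 1.6 to 10.9 units, while ARR15 is nearly level in pair 2.

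Among the type-A response regulators, the early cytokinin targets, 2 of the 10 on the list had a listed probe set. The rest may be on probe sets that are not listed under 1 gene, which leaves them unnamed here. ARR15 had 20.9, 12.6, 14.3 and 36.6 units after BA and 3.3, 11.4 and 3.2 units with solvent. The groups did not overlap, although BA array 2 exceeded solvent array 2 by little. The pair differences were 1.86, 0.11 and 1.42, so the paired difference was 1.13 (SE 0.57) against 1.40 (SE 0.46) unpaired, and neither passed (limma adjusted p = 0.927 paired and 1.00 unpaired).

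ARR16, the other type-A regulator with a listed probe set, had 15, 37.2, 4.8 and 18.4 units after BA and 4.4, 11.4 and 11.2 units with solvent. Its groups overlapped, because BA array 3 lay below 2 of the solvent arrays. The log2 difference was 0.68 (SE 0.49), with pair differences of 1.24, 1.46 and −0.83. The median of these 2 regulators was 1.04 in the unpaired fit, and that of all probe sets tested was −0.0021.

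Genes that transport or conjugate cytokinins were measured in part. AZG1, a purine transporter that has also been reported to carry cytokinins, had 112.4, 64.3, 180.7 and 111.3 units after BA and 47.7, 34, 48.7 units with solvent. All 4 BA arrays lay above the solvent arrays, and each pair showed a difference, of 1.18, 0.86 and 1.82. The log2 difference was 1.29 (SE 0.32, unpaired limma adjusted p = 1.00, paired 0.455). Of the 13 transporters and salvage enzymes on its list, it was the 1 member with a listed probe set.

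UGT76C1 and UGT76C2 attach glucose to the ring nitrogens of cytokinins, which inactivates them. UGT76C1 had 41.8, 40.5, 58.4 and 48.8 units after BA and 31.9, 42.7 and 49.3 units with solvent (log2 difference 0.19, SE 0.26). UGT76C2 had 47.6, 10.8, 40.8 and 35.7 units after BA and 14.4, 29.9 and 35.5 units with solvent (0.23, SE 0.45). Both overlapped between the groups, and pair 2 ran opposite to pairs 1 and 3 in both. The glucosyltransferase UGT73C1 and the type-B regulator ARR18 had a probe set below the filter. Cytokinin receptors, phosphotransfer proteins, cytokinin response factors, cytokinin oxidases and synthesis enzymes had no listed probe set with 1 gene and were not analysed here, the transgene included.

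By a rule that took the 15 higher and 15 lower genes of lowest unpaired p with 1 listed gene, groups that did not overlap and pairs of one sign, 30 genes were described. Over all probe sets, 180 (1.13%) had every BA array above every solvent array and 136 (0.854%) had every BA array below, and 25.8% had 3 pairs of one sign. None of the 30 passed in either fit, so their values are a description. With 1 residual degree of freedom, 7 of the higher genes passed the paired fit without pair 2, AZG1 among them. Without pair 3, 2 passed (AT1G21830 and AT1G68360), and none passed without pair 1. Over all 15922 probe sets tested, 52 passed without pair 2, 12 without pair 3 and 0 without pair 1. The 30 genes were chosen by their values in these same arrays, which favours such passes.

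The higher genes included regulators and enzymes. AT1G68360, a C2H2 zinc finger protein, had 41.8, 99.8, 37.2 and 43 units after BA and 5.2, 24.7 and 4.2 units with solvent. Array 2 was highest in each group, and the pair differences were even, at 2.40, 1.88 and 2.42. Its log2 difference was 2.15 (SE 0.49) unpaired and 2.23 (SE 0.32) paired.

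AT3G50300, of the HXXXD acyltransferase family, had 86.9, 98.8, 92.1 and 75.4 units after BA and 36.2, 25.6 and 17.5 units with solvent (log2 difference 1.66, SE 0.35). AT2G40230, of the same family, had 114.9, 92.9, 258.9 and 115.8 units after BA and 54.8, 45.1 and 85.3 units with solvent (1.12, SE 0.33). Array 3 was highest in both groups for AT2G40230 and not for AT3G50300. AT4G03600 had 29.9, 61.5, 70.7 and 45.4 units after BA and 3.2, 3.5 and 23.8 units with solvent (2.30, SE 0.58). Its smallest pair difference, 1.45, was in pair 3, whose solvent array was the brightest of the 3.

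AT1G21830 was measured by a pair of probe sets. On 262488_at it had 142.7, 91.5, 185.6 and 107 units after BA and 29.5, 41.6 and 75.5 units with solvent (log2 difference 1.42, SE 0.38). The other, 262489_at, gave a smaller difference of 0.58 (SE 0.32), or 0.71 as a mean of pairs. Both had the same sign in all 3 pairs. On 262489_at the groups overlapped, at 183.4 to 322.3 units after BA and 111.6 to 256.1 units with solvent.

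Differences of the remaining higher genes were 0.72 to 1.24 on the log2 scale. AT1G06980 had 47.3 to 70.1 units after BA and 14.6 to 35.8 units with solvent, and AT3G06070 had 83.4 to 102 units after BA and 25.7 to 72.3 units with solvent. CHX20, a cation/proton exchanger of guard cells, had 21 to 32.9 units after BA and 7.1 to 13.8 units with solvent. The WD40 protein AT3G15470 had 26.6 to 51.3 units after BA and 6.3 to 24.3 units with solvent. AT3G05270, AT4G17000, AT5G07730 and the F-box protein AT1G08710 had differences of 1.16, 1.02, 0.72 and 0.78. In pair 2, AT3G15470 and AT3G05270 differed by 0.12 and 0.06, less than in the other pairs.

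Among the lower genes, AT5G07580, an ERF transcription factor, was 2-fold or more lower in every pair. It had 75.9, 40.2, 92.2 and 79.7 units after BA and 160.6, 144.8 and 239.7 units with solvent. The pair differences were −1.05, −1.77 and −1.35, and the log2 difference was −1.32 (SE 0.31) unpaired and −1.39 (SE 0.21, limma adjusted p = 0.278) paired. It passed the paired fit without pair 2 (adjusted p = 0.0198) or without pair 3 (adjusted p = 0.0451).

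The other lower genes were dim or differed by less. AT1G31920 had 7.7, 4.2, 1.1 and 3.7 units after BA and 23.2, 18.9 and 14.3 units with solvent (log2 difference −1.61, SE 0.34). AT1G33430, a galactosyltransferase, had 4.5, 5.2, 2.2 and 16.9 units after BA and 26, 24.9 and 28.8 units with solvent (−1.68, SE 0.42). In AT1G33430 the unpaired BA array 4 was the one nearest to the solvent arrays.

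AT1G09550, of the pectin acetylesterase family, had 2 to 18.5 units after BA and 28.8 to 36.2 units with solvent (log2 difference −1.54). AT1G23030, a U-box ubiquitin ligase known as PUB11, had 93.7 to 135.9 units after BA and 158.3 to 236.2 units with solvent (−0.79). AT2G28200, a C2H2 zinc finger protein, had 40.9 to 64.8 units after BA and 76.5 to 205 units with solvent. The tetratricopeptide protein AT2G47440 had 138.6 to 157.9 units after BA and 214.1 to 309.4 units with solvent (−0.76). That none of these 4 overlapped between the groups follows from the rule that chose them. In AT2G47440 the BA arrays lay close together.

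The remaining 8 lower genes had differences of −0.55 to −1.13. They were AT1G55630, a pentatricopeptide protein, AT1G80450, a VQ-motif protein, AT2G17910, AT2G20050, AT1G55880, AT4G35720, AT4G31310 and AT4G20030. AT2G20050 had 73.4 to 78.5 units after BA and 105.8 to 122.1 units with solvent on 265581_at (log2 difference −0.56), but −0.08 on its other probe set, 265580_at. The probe sets of this gene thus disagree.

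The paired and the unpaired fit ordered the probe sets differently. Of the 100 of lowest p in each, 47 were shared, and of the first 15, 9 were. Some probe sets that varied strongly between numbers ranked higher with pairs than without, and 3 of them are given here, chosen after their values were seen. The unlisted 265067_at ranked 3 in the paired and 209 in the unpaired fit, with 522.5, 213.4, 1725.4 and 481.9 units after BA and 201.1, 93.4 and 489.4 units with solvent. Its groups overlapped, yet each BA array stood above its partner by 1.36, 1.16 and 1.81 on the log2 scale.

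AT1G49500 ranked 19 paired and 1056 unpaired, with 699.3, 978.4, 2634.6 and 919.1 units after BA and 341.6, 386.9 and 1705.1 units with solvent. Number 3 was far above the rest in both groups. AT5G61590, the ERF repressor of wax synthesis DEWAX, ranked 10 paired and 96 unpaired, with 154.9, 53.1, 170.8 and 142.2 units after BA and 264.8, 148.9 and 582.5 units with solvent. It was lower in every pair, by −0.76, −1.43 and −1.75. None of these 3 passed the paired fit (limma adjusted p = 0.179, 0.398 and 0.339).

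ARR15 stood the other way round, at rank 43 unpaired and rank 1262 paired. Its highest BA value, 36.6 units, is in array 4, which the pairs leave out.

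**Figure D2:**
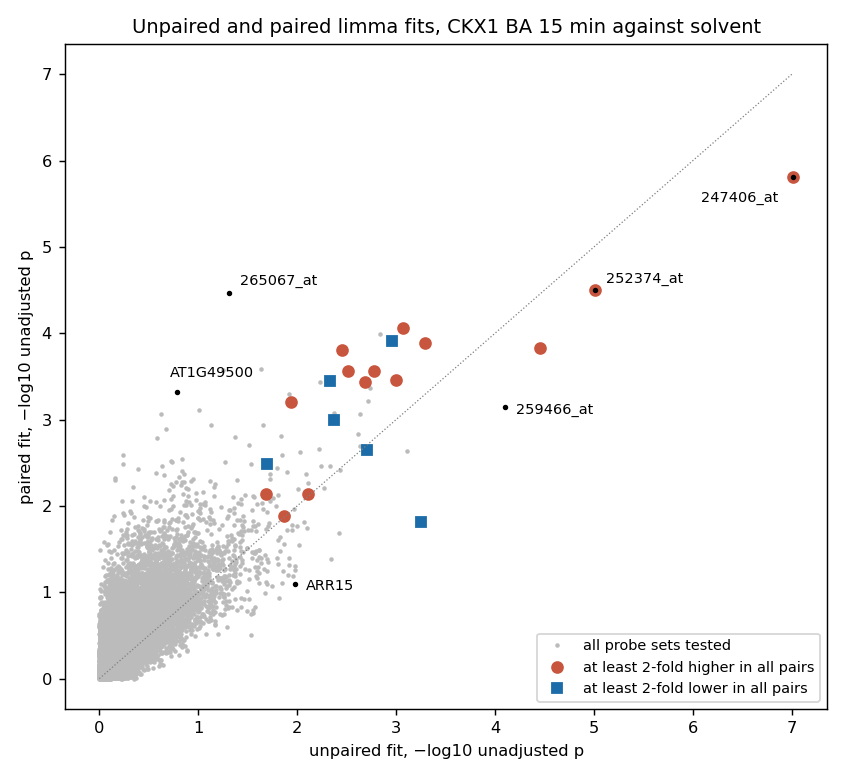
Unadjusted p of each probe set tested in the unpaired fit (x axis) and the paired fit (y axis), both as −log10, with the diagonal dotted. Circles and squares mark probe sets at least 2-fold higher or lower in all 3 pairs with array 4 on the same side. 247406_at is farthest out on both axes, 265067_at and AT1G49500 lie high only on the paired axis, and ARR15 lies below the diagonal.

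A count by size used no variance estimate. At least 2-fold higher in all 3 pairs were 17 probe sets (0.107%), and 11 were lower (0.0691%). With BA array 4 also outside the solvent range on the same side, 14 higher (0.0879%) and 6 lower (0.0377%) were left. Of the 14, 5 are listed under 1 gene, namely AT4G03600, AT1G68360, AT3G50300, AT1G21830 and AT5G67430, an N-acetyltransferase family member. AT5G67430 had 33.8, 15.9, 26.5 and 36.8 units after BA and 11.6, 5.3 and 9 units with solvent, and its pair differences of 1.31, 1.15 and 1.27 were close together.

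The 9 unlisted members with higher signal were 247406_at, 252374_at, 246217_at, 264200_at, 251665_at, 264630_at, 254016_at, 253038_at and 267591_at. 267591_at was the most even of them, with 95.4, 112.6, 171.9 and 110.5 units after BA and 43.3, 43.6 and 76.9 units with solvent. Lower were the genes AT1G33430, AT1G31920 and AT5G07580 and the unlisted 252958_at, 259954_at and 265899_s_at.

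Just inside the 2-fold limit were 254016_at, at 1.04 in pair 2, and AT5G07580, at −1.05 in pair 1. Just outside were AT2G40230, at 0.99 in pair 2, 259466_at, at 0.98, and 263236_at, at 0.95 in the same pair. Pair 2 gave the smallest difference in 9 of the 14 higher members (all tested 26.8%) and pair 3 the largest in 7 (all tested 45.5%). The number of probe sets that met the rule depended on the pseudocount, with 5 of the 20 left, all higher, at a larger one of 0.5 of the table's median. Without the filter on low signal 43 met it, 32 higher and 11 lower.

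**Figure D3:**
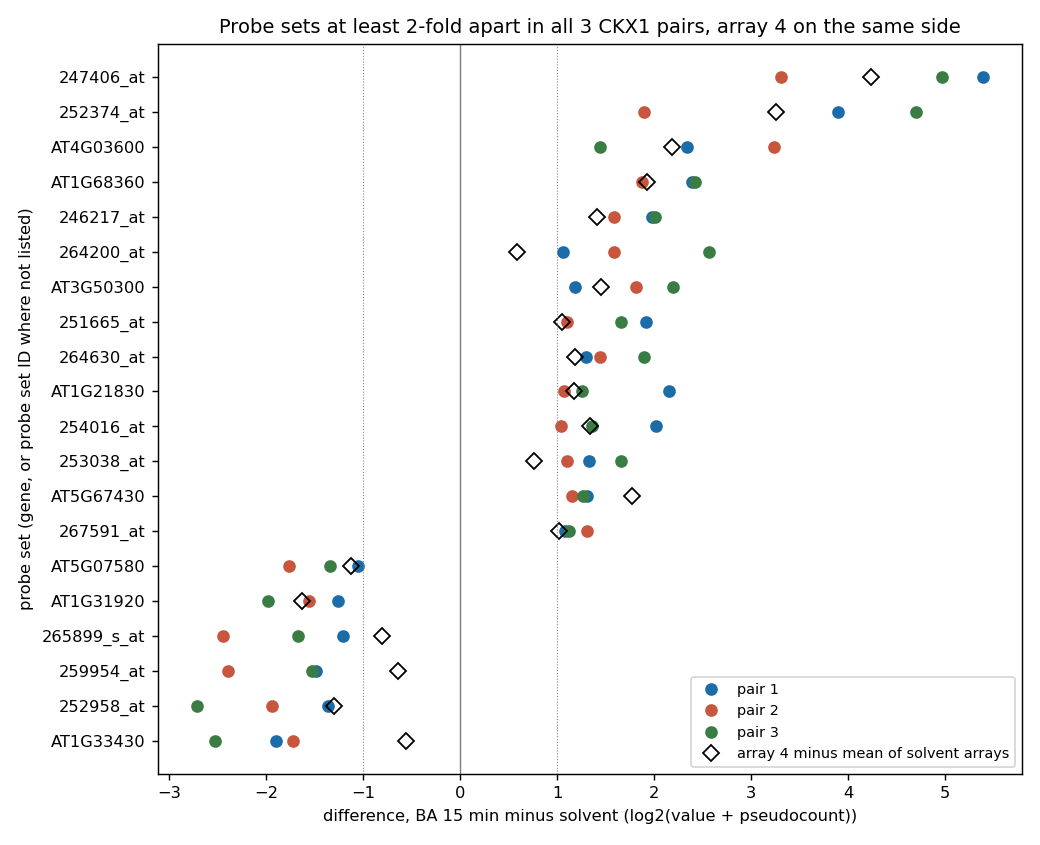
Differences between BA 15 min and solvent, in log2(value + pseudocount), for the 14 higher and 6 lower probe sets that were at least 2-fold apart in all 3 CKX1 pairs. Filled circles are pairs 1 to 3, open diamonds BA array 4 minus the mean of the solvent arrays, and dotted lines mark the 2-fold limit. Pair differences of 247406_at range from 3.31 to 5.39, while those of AT5G67430 and 267591_at lie close together.

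The CKX1 differences contain no Col-0 array, and the same probe sets were looked up in Col-0. The choice of probe sets was not fully separate from Col-0. The filter on low signal used means over all arrays, so a probe set dim in CKX1 could pass it through high Col-0 values. The unpaired p, which ranked the named genes, used the spread of the Col-0 arrays too. Col-0 counts were not made for the further probe sets that met the 2-fold rule only without the filter. Of the 14 probe sets higher in CKX1, 12 were also higher in Col-0 after 15 min of BA, against 45.1% of all probe sets tested. They were 2-fold or more higher in 9 cases (all tested 1.73%), and both Col-0 BA arrays lay above both solvent arrays in 10 (all tested 11.6%). Without Col-0 BA array 2, which had 92.5 units of the 25S control against 16.1 in array 1, 12 were still higher (all tested 50.2%). By limma's adjusted p nothing passed in Col-0 at 15 min, and unadjusted p-values under 0.05 came from 173 probe sets (1.09%).

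The 6 lower probe sets were mixed in Col-0. Of these, 3 were lower in Col-0 (all tested 54.9%), 1 by 2-fold or more (all tested 2.73%), and 1 had both BA arrays below both solvent arrays (all tested 15.1%). That one was 252958_at, with 35.2 and 17.7 units after BA and 40.8 and 76 units with solvent in Col-0. Of the 15 higher genes chosen by lowest p, 14 were higher in Col-0 (all tested 45.1%), and 12 without Col-0 BA array 2 (50.2%). Of the 15 lower genes, 5 were lower in Col-0 (all tested 54.9%), and 7 without that array (49.8%). The difference between the higher and the lower probe sets was not tested.

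Col-0 values of the leading members were as follows. 247406_at had 579.8 and 603.8 units after 15 min of BA and 56.8 and 133.9 units with solvent in Col-0. 252374_at had 1032.4 and 919.8 units after BA and 62.1 and 90.2 units with solvent. 251665_at had 195.5 and 195 units after BA and 55 and 70.5 units with solvent. In all 3 the Col-0 arrays were separated as in CKX1.

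In 4 of the 14 the Col-0 arrays overlapped at 15 min, and 2 of these, 246217_at and 264630_at, were not higher in Col-0. 246217_at had 34.8 and 54.4 units after BA and 62.4 and 30.9 units with solvent in Col-0. 264630_at had 20.2 and 13.4 units after BA and 28.1 and 17.1 units with solvent there. Of these 2, only 264630_at was dim in Col-0, and both differed by less than 1 on the log2 scale between the Col-0 groups. The others, AT3G50300 and AT5G67430, were higher on average but with 1 BA array below 1 solvent array. AT3G50300 had 130.6 and 48.1 units after BA and 57.6 and 29.2 units with solvent in Col-0, and AT5G67430 had 22.8 and 12.9 units after BA and 17.6 and 2.9 units with solvent.

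The labels of Col-0 120 min array 1 disagree, since the title and description give BA while the source name gives control solution. It was placed by its title. Both Col-0 120 min arrays also had a high 25S ribosomal RNA control, of 695.9 and 548.2 units, against 46.2 and 18.1 units in the Col-0 solvent arrays, and its part in the values at 120 min was not tested.

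After 120 min of BA in Col-0, which is set against the same Col-0 solvent arrays, 9 of the 14 were higher (all tested 42.8%), 6 by 2-fold or more (all tested 4.89%), and 8 had both arrays above both solvent arrays (all tested 26.3%). Their median log2 difference was 1.29 at 15 min and 0.49 at 120 min in Col-0, and 1.45 in CKX1 at 15 min, with all probe sets tested at −0.042, −0.11 and −0.0021. Without 120 min array 1, a setting chosen after seeing the data, 13 of the 14 were higher at 120 min (all tested 41.8%), with a median of 0.76. 247406_at had 187.4 and 188.2 units at 120 min in Col-0, and 252374_at had 435 and 393 units, in both below the values at 15 min and above solvent. AT1G21830 differed from these, with 200.7 and 520 units at 15 min and 663.4 and 632.8 units at 120 min.

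**Figure D4:**
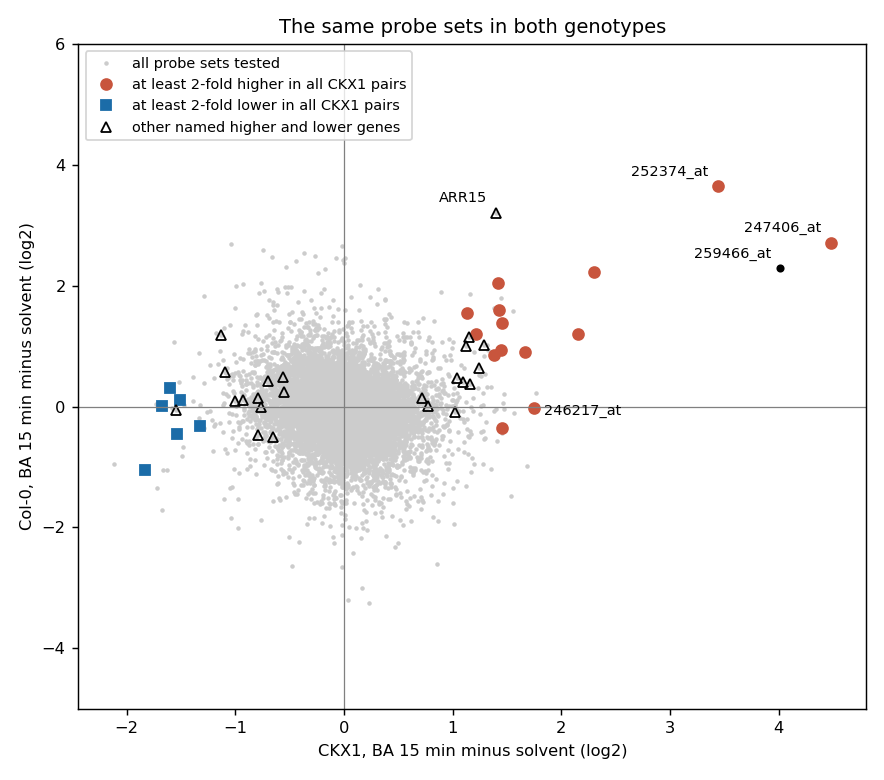
Log2 difference between BA 15 min and solvent in CKX1 (x axis, unpaired fit) and in Col-0 (y axis) for all probe sets tested. Circles and squares mark the 14 higher and 6 lower probe sets that were at least 2-fold apart in all CKX1 pairs, triangles the other named genes, and the black dot 259466_at. Of the circles 12 lie above 0 in Col-0, the squares lie on both sides of 0, and ARR15 lies above most circles.

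The difference between the genotypes in their response to BA was tested as an interaction in the unpaired fit. There limma called 0 probe sets in either direction, with 169 (1.06%) at an unadjusted p under 0.05. With the CKX1 title number as a fixed block limma also called 0, with 588 of 15922 at an unadjusted p under 0.05. The interaction values of single probe sets given here come from the fit without that block. 247406_at had an interaction of 1.77 (SE 0.64, limma unadjusted p = 0.0178, adjusted p = 1.00), the positive sign meaning a larger log2 difference in CKX1. Without Col-0 solvent array 1 or 2 it was 2.36 or 1.17. 252374_at had −0.20 (SE 0.77), which became 0.05 without Col-0 solvent array 1 and 0.21 without CKX1 BA array 2. The interaction of ARR15 was −1.80, a smaller log2 difference in CKX1 (limma unadjusted p = 0.0359, adjusted p = 1.00). It was −2.43 without Col-0 solvent array 1 and −1.16 without Col-0 solvent array 2. In Col-0 ARR15 had 119.8 and 57.8 units after 15 min of BA and 11.3 and 2.7 units with solvent.

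For several probe sets the CKX1 arrays lay below the Col-0 arrays in both treatments. 247406_at stood at 138.3 to 288.8 units in CKX1 after BA, below the Col-0 values of 579.8 and 603.8 units. With solvent it stood at 1.6 to 10.9 units in CKX1, below 56.8 and 133.9 units in Col-0. The same held for 251665_at, 259466_at, 263236_at and AT3G06070.

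259466_at had 105.7 to 310.6 units in CKX1 after BA, below 749.1 and 1007.4 units in Col-0 after BA. With solvent it had 1.3 to 52 units in CKX1, below 164.8 and 186.7 units in Col-0. ARR15 was lower in CKX1 only after BA, at 12.6 to 36.6 units against 57.8 and 119.8 units in Col-0, whereas its solvent values overlapped, at 3.2 to 11.4 units in CKX1 and 2.7 and 11.3 units in Col-0. UGT76C2 had 10.8 to 47.6 units in CKX1 after BA, against 140.3 and 155.9 units in Col-0, and 14.4 to 35.5 units in CKX1 with solvent, against 67.9 and 151.1 units in Col-0.

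Counted over the sets, the CKX1 solvent arrays lay below both Col-0 solvent arrays in 5 of the 14 higher probe sets, against 14.9% of all tested. The CKX1 BA arrays lay below both Col-0 BA arrays in 3 of the 14, against 9.19%. Of the 15 lower genes, 8 had CKX1 solvent arrays above Col-0 (all tested 9.41%) and 8 had CKX1 BA arrays below Col-0 (all tested 9.19%). The choice of members by their CKX1 values favours low solvent and high BA values in the first set. In the second set it favours high solvent and low BA values. Neither count was tested.

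AT1G31920 is a lower gene with CKX1 BA arrays below Col-0, while its solvent arrays overlapped between the genotypes. It had 1.1 to 7.7 units in CKX1 after BA and 14.3 to 23.2 units in CKX1 with solvent, but 28.8 and 38.1 units after BA and 20.7 and 32.5 units with solvent in Col-0. Its interaction of −1.92 (SE 0.56, limma unadjusted p = 0.00545, adjusted p = 1.00) did not pass.

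Genes of other hormone and stress pathways were measured through few listed probe sets. None of the members tested passed in either fit, in either direction. The 3 gibberellin receptors had a median log2 difference of −0.57 unpaired and −0.65 paired, with all probe sets at −0.0021 and −0.019. GID1C had 21, 6.9, 45.5 and 25.3 units after BA and 33.9, 36.4 and 56.9 units with solvent, and was lower in each pair, by −0.61, −1.95 and −0.30. GID1A was also lower in each pair, at 56.1 to 138.9 units after BA and 111.8 to 236.4 units with solvent. GID1B changed sign in pair 3.

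STZ, a zinc finger repressor induced by many stresses, had 23.5, 52.5, 518.4 and 38.9 units after BA and 45.1, 452.4 and 699.3 units with solvent. It spanned more than 10-fold within each group, and each BA array was below its partner, by −0.85, −3.03 and −0.43. The log2 difference was −1.72 (SE 1.04, limma unadjusted p = 0.125) unpaired and −1.44 (SE 0.43, unadjusted p = 0.00891, adjusted p = 0.927) paired. The unpaired difference of STZ was −2.90 without solvent array 1, −2.64 without BA array 3 and −0.97 without solvent array 3. STZ passed the paired fit without pair 3 (−1.94, limma adjusted p = 0.0451, 1 residual degree of freedom). WRKY53, the other member of the stress list, had 0.01 (SE 0.77) unpaired, which turned negative with centred arrays (−0.02) or quantile normalization (−0.03).

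In the auxin list, GH3.3 and WES1, which conjugate auxin to amino acids, had 0.30 (SE 0.33) and −0.31 (SE 0.51). EIN3, the transcription factor of ethylene signalling, had −0.27 (SE 0.39). Each of these 3 changed sign without solvent array 3, to −0.13, 0.41 and 0.07. The dehydrins LTI30 and COR47 had 0.35 (SE 0.23) and 0.33 (SE 0.26).

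Of the repressors of nitrate uptake genes, AT1G68670 (HHO2) had 217.7, 177.8, 216.5 and 182.2 units after BA and 118.4, 113.4 and 182.3 units with solvent, and was higher in each pair, by 0.86, 0.63 and 0.24. The groups overlapped, since BA arrays 2 and 4 lay just below solvent array 3. AT3G25790 (HHO1) had 0.42 (SE 0.40) and changed sign in pair 1. The 7 measured expansins, which loosen cell walls, had a median of 0.015 unpaired and −0.18 paired, and single members ran from −0.48 (EXPA8) to 0.34 (EXPB1).

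Markers of root and shoot tissue did not pass in either fit. The 4 measured root markers summed to 2768.1 to 3793.6 units after BA and 3507.9 to 3956.2 units with solvent, the lowest being BA array 3. The 2 measured shoot markers summed to 5970.3 to 6842.2 units after BA and 4555.5 to 7189.5 units with solvent. Median log2 differences were 0.017 for root and 0.019 for shoot markers, and −0.079 for 3 reference genes, and no marker was at 0 in any CKX1 array. PORB, a light-dependent enzyme of chlorophyll synthesis, was the most variable marker, with 163.6 units in BA array 3 and 465.6 units in solvent array 3 against 1161.2 to 2088 units in the other 5 arrays.

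**Figure D5:**
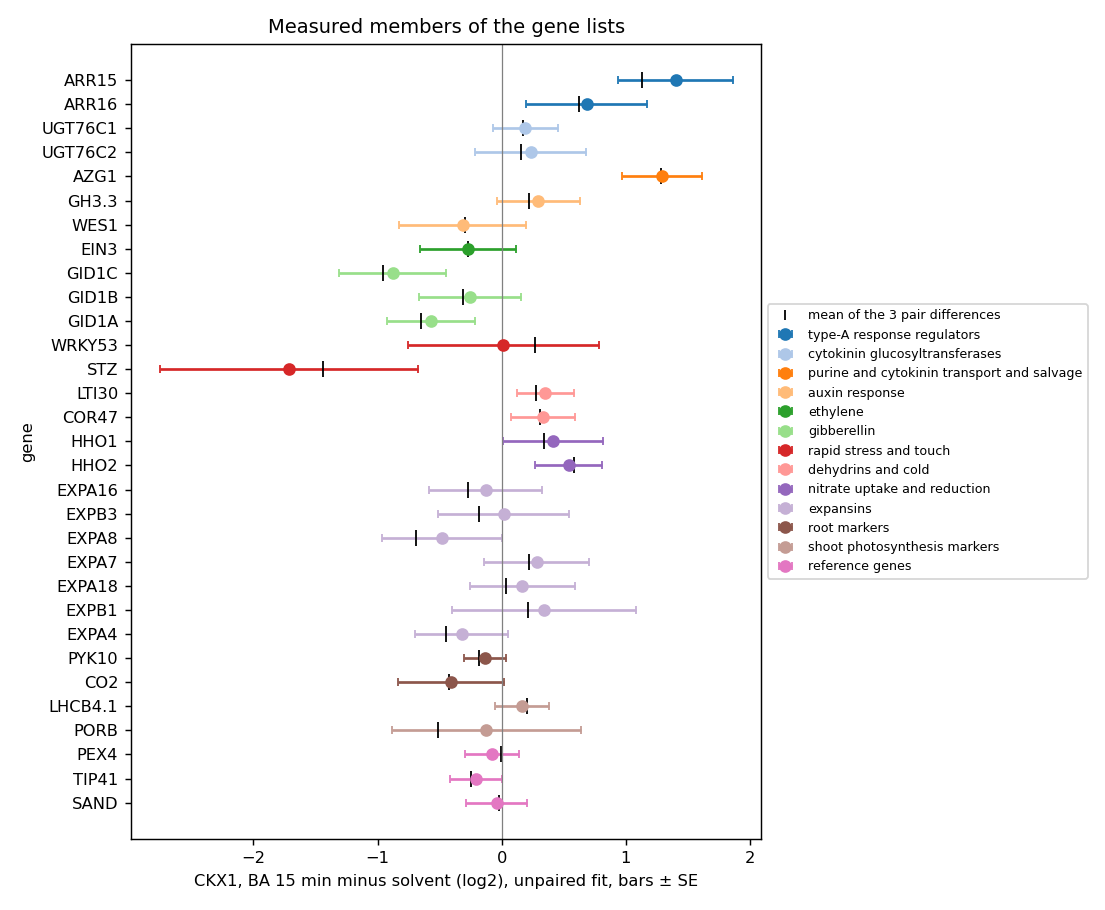
Log2 difference between BA 15 min and solvent in CKX1 for measured list members, coloured by list. Points with bars are unpaired fits ± SE over 13 arrays, and black ticks are means of the 3 pair differences. ARR15 (1.40) and AZG1 (1.29) lie farthest right, STZ (−1.72) farthest left with the widest bar, and EXPA7 and EXPA18, drawn as expansins, also count as root markers.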

How the data were processed

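Per the labels, cDNA made from 5 µg of TRIzol-extracted RNA served to make labelled cRNA, and a service centre ran the Affymetrix arrays. The deposited table holds the authors' normalized signal intensity per probe set on a linear scale. The sources used here name no software, scaling or build. All 13 sample columns were used (0 left out). The number of arrays limits the precision.

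Of 22810 probe sets, 64 controls were left out. Values under 1 were set to 1, a pseudocount of 3.39, which is 0.1 times the median signal (33.9), preceded log2, and the lowest 30% by mean were filtered, leaving 15922. Of these 8748 were listed under 1 gene, 311 under several and 6863 not at all, which leaves them unnamed here. Of the 13513 of 22746 listed under 1 gene, 13436 matched RefSeq.

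limma 3.58.1 in R 4.3.3 was fitted with an intensity trend to 5 groups of all 13 arrays with no block (8 residual degrees of freedom), and to the 6 numbered CKX1 arrays with the title number as a block (2). Benjamini-Hochberg adjustment ran over all probe sets tested, with a threshold of 0.05. The labels do not say what a number marks, and pairing was taken from the correlations given above. The code was tested on simulated data. Differences between genotypes were an interaction in the first fit.

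Named were all probe sets past the threshold, the 15 higher and 15 lower genes described above, measured cytokinin pathway members, up to 4 members of each other list by lowest p and up to 6 unlisted probe sets. The members and lists were chosen with earlier results of these data known. A planned search of promoters for response regulator motifs was not run, since no promoter sequence was used here. Alternatives were other scalings, pseudocounts, filters, array weights, blocks and leaving out arrays or pairs.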

Additional observations from a re-analysis of the deposited data

Results flagged for a closer look

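In 4 of 75 named probe sets, 1 of the 4 CKX1 arrays after BA lay farther from the nearest other BA array than Dixon's limit for 4 samples allows. Chance alone gives such a gap in about 1 of 20 groups. AT1G68360 had 99.8 units in BA array 2, against 37.2 to 43 units in the other BA arrays. GID1A had 56.1 units in BA array 2, against 126.5 to 138.9 units in the others. AT5G61590 had 53.1 units in BA array 2, against 142.2 to 170.8 units in the others. 252958_at had 2.3 units in BA array 3, against 17.7 to 20.6 units in the others. For the first 3, solvent array 2 deviated the same way from the other solvent arrays.

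In 3 of the 15 lower genes, all CKX1 arrays after BA lay below all CKX1 solvent arrays, while both Col-0 arrays after BA lay above both Col-0 solvent arrays. The Col-0 order held for 11.6% of all probe sets tested, and the CKX1 order was the rule that chose the 15. The pentatricopeptide protein AT1G55630 had 3.9 to 16 units after BA and 20 to 21.4 units with solvent in CKX1, and 22.6 and 26.9 units after BA and 13.4 and 18 units with solvent in Col-0. The interaction was −1.66 (limma unadjusted p = 0.0163). AT4G31310 had −0.80 (unadjusted p = 0.0521) and AT4G20030, an RNA-binding protein, had −1.11 (unadjusted p = 0.0363). None of the 3 passed over all probe sets (limma adjusted p = 1.00), and they were chosen by the CKX1 part of that difference.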

How the results depend on the processing

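Directions of the 30 higher and lower genes and of the leading unlisted probe sets kept in all alternatives of both CKX1 fits. Their groups do not overlap and their pairs have one sign, so leaving out arrays or pairs could not reverse them. The number of calls moved more. The unpaired count of 1 was 2 with array weights and 1 to 2 when single arrays were left out, with 2 (252374_at added) without BA array 2 or BA array 3 and 2 (259466_at added) without solvent array 2. With the replicate block as a fixed or random term it was 1 (247406_at, adjusted p = 0.00554 and 0.00338). The paired count of 1 was 0 with a pseudocount of 0.02 of the median (adjusted p of 247406_at 0.104), without the filter (0.872), with a filter at the 50th percentile (0.0889), without the intensity trend (0.676) and with no replicate block (0.273). It was 3 with array weights, and 0 to 52 without single pairs, namely 0 without pair 1, 52 (44 higher, 8 lower) without pair 2 and 12 (9 higher, 3 lower) without pair 3, with 1 residual degree of freedom. Interaction counts were 0 in each setting. The 20 probe sets at least 2-fold apart in all pairs became 5 with a pseudocount of 0.5 of the median and 43 without the filter. The filter changes no value, so the 43 necessarily hold all 20. The cause of these moves was not tested. For single genes, 2000 settings kept direction and call, 31 gained a call, 6 lost one and 28 changed sign, and these 28 were of uncalled values. When single arrays were left out, log2 differences ran from −0.106 to 0.645 for UGT76C2, −0.134 to 0.668 for GH3.3, −0.71 to 0.405 for WES1, −0.705 to 0.0732 for EIN3, −0.607 to 0.0781 for GID1B, −0.591 to 0.495 for WRKY53, −0.911 to 0.0925 for EXPA8, −0.43 to 0.896 for EXPB1, −0.221 to 0.592 for EXPA18, −0.681 to 0.703 for PORB, −0.204 to 0.00265 for PEX4 and −0.196 to 0.175 for AT2G28390, and the interaction of 252374_at from −0.657 to 0.21. Without both CKX1 arrays numbered 3, GH3.3 had −0.0277, WES1 0.137, WRKY53 −0.0734, LHCB4.1 −0.0287, PORB 0.146 and AT2G28390 0.0069. WRKY53 had −0.0238 with centred arrays, and WRKY53 and LHCB4.1 had −0.0295 and −0.00707 after quantile normalization. With array weights WRKY53 had −0.258 and PORB 0.471. Signals near 1 unit lie below the pseudocount, so fold changes of dim probe sets are understated.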
